A study of Homo sapiens with 3 samples.

Results

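The 4 HOX gene clusters, HOXA, HOXB, HOXC and HOXD, were examined for replication origin calls in untreated HCT116 cells. HCT116 is an established human colorectal cancer cell line, grown here in RPMI medium with no treatment. The clusters were taken as fixed windows of hg19, the genome build of the calls, at chr7:27130000-27250000 for HOXA, chr17:46600000-46810000 for HOXB, chr12:54330000-54450000 for HOXC and chr2:176950000-177060000 for HOXD. They hold 38 HOX genes, which are 10 of HOXA, 10 of HOXB, 9 of HOXC and 9 of HOXD, and each window was compared with the 500 kb on each side of it. Short nascent strand sequencing (SNS-seq) was done in triplicate, and for each library the authors deposited broad EPIC2 regions and single-base MACS2 summits. Of the EPIC2 regions, 91 of 124492 (replicate 1), 63 of 44482 (replicate 2) and 59 of 78820 (replicate 3) touched the windows. The windows held 94 of 218227 MACS2 summits in replicate 1, 41 of 63077 in replicate 2 and 47 of 162176 in replicate 3. The files give no read numbers, so the depth is unknown, and fewer calls in a replicate and a shallower library cannot be told apart. All 3 replicates are 1 group, and any p-value measures only the spread between these samples.

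HOX genes encode homeodomain transcription factors that give cells their position along the body axis. In each cluster the genes stand in the order in which they act from head to tail, with low paralogue numbers acting in the hindbrain and neck, and high numbers in the trunk, limbs and hindgut. The clusters are known for broad domains of Polycomb or active chromatin, CpG-rich DNA and few mobile elements. SNS-seq maps the sites where replication starts: newly made leading strands still carry an RNA primer, which protects them while λ-exonuclease digests other DNA. Such sites are often described at CpG-rich and G-rich DNA near transcription start sites (TSSs).

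Promoter sequence was described as a feature that the choice of windows did not use. RefSeq promoters of GRCh38.p14, from 250 bases before to 50 after a gene's start, were at hand for 20 of the 38 members. Their median CpG number was 24.5, against 12 over all 27305 promoters, and their median GC content was 60.2% against 58%. These are mostly promoters of HOXA (9, median 25 CpGs) and HOXD (8, median 24.5), while HOXB has 1, with 11 CpGs, and HOXC 2 of identical sequence, with 15. The members ranged from 4 CpGs in HOXD4 to 44 in HOXA13. The pattern of 4 runs of GGG with 1 to 7 bases between runs, on either strand, was found in 9 of the 20 (45%) and in 23.7% of all promoters. The letters GAAGAA on either strand were found in 3 of the 20 (15%) and in 20% of all. Below are the 250 bases before the start of HOXA13, a gene of limb, genital and hindgut patterning, and of HOXD4, a gene of hindbrain and neck patterning, which mark the ends of the CpG range and were picked after these numbers were seen. HOXA3, a gene of pharyngeal organ development, is shown because it is the one member with both a promoter entry and an hg19 gene position. Capitals mark CpG dinucleotides.
HOXA13: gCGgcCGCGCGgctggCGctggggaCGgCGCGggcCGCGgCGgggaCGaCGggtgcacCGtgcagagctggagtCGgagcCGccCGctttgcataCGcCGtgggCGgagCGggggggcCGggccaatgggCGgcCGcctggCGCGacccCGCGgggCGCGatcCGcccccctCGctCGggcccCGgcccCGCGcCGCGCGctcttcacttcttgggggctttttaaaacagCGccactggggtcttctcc
HOXD4: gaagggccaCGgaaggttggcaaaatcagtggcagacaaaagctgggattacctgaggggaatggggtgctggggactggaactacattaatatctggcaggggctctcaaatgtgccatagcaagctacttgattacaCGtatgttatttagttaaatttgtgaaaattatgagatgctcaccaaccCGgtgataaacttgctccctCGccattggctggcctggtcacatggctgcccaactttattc
HOXA3: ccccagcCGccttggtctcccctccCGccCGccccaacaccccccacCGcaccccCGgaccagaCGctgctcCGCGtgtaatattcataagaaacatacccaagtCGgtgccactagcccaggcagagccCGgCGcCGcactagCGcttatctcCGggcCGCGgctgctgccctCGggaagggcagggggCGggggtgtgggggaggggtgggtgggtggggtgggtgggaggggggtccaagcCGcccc
The HOXA13 stretch (chr7:27200092-27200341, minus strand, GRCh38.p14) holds 40 CpGs and 78% GC. The HOXD4 stretch (chr2:176151300-176151549, plus strand, GRCh38.p14) holds 4 CpGs and 47.6% GC. The HOXA3 stretch (chr7:27113843-27114092, minus strand, GRCh38.p14) holds 19 CpGs and 72% GC, with long G runs at its gene-proximal end that match the pattern of 4 GGG runs. These positions are of another build than the calls, so they were not set against them.

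The question put to the calls was whether the HOX clusters carry more of them than the DNA around them. EPIC2 regions covered a larger part of HOXA, HOXB and HOXD than of their flanks in every replicate. The covered length of HOXA was 36.5%, 30.2% and 44.7% in replicates 1, 2 and 3, and that of its flanks was 6.92%, 1.9% and 9.98%. HOXD was covered to 34.4%, 22% and 30.7%, and its flanks to 2.78%, 0.34% and 3.88%. In both clusters the lowest replicate lay above the highest value of the flanks. HOXB was covered to 71.8%, 60.2% and 83.4%, the most of the 4 clusters, and its flanks were themselves covered to 52.1%, 36.6% and 69.2%, so the ranges overlapped. HOXC was covered to 50.3%, 31.3% and 25.7%, against 26.5%, 10.8% and 30.6% in its flanks, and replicate 3 ran the other way. The mean difference between cluster and flanks was 30.8 ± 3.39 percentage points in HOXA, 19.2 ± 4.68 in HOXB, 13.2 ± 15.7 in HOXC and 26.7 ± 4.96 in HOXD (SD, n = 3).

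**Figure D1:**
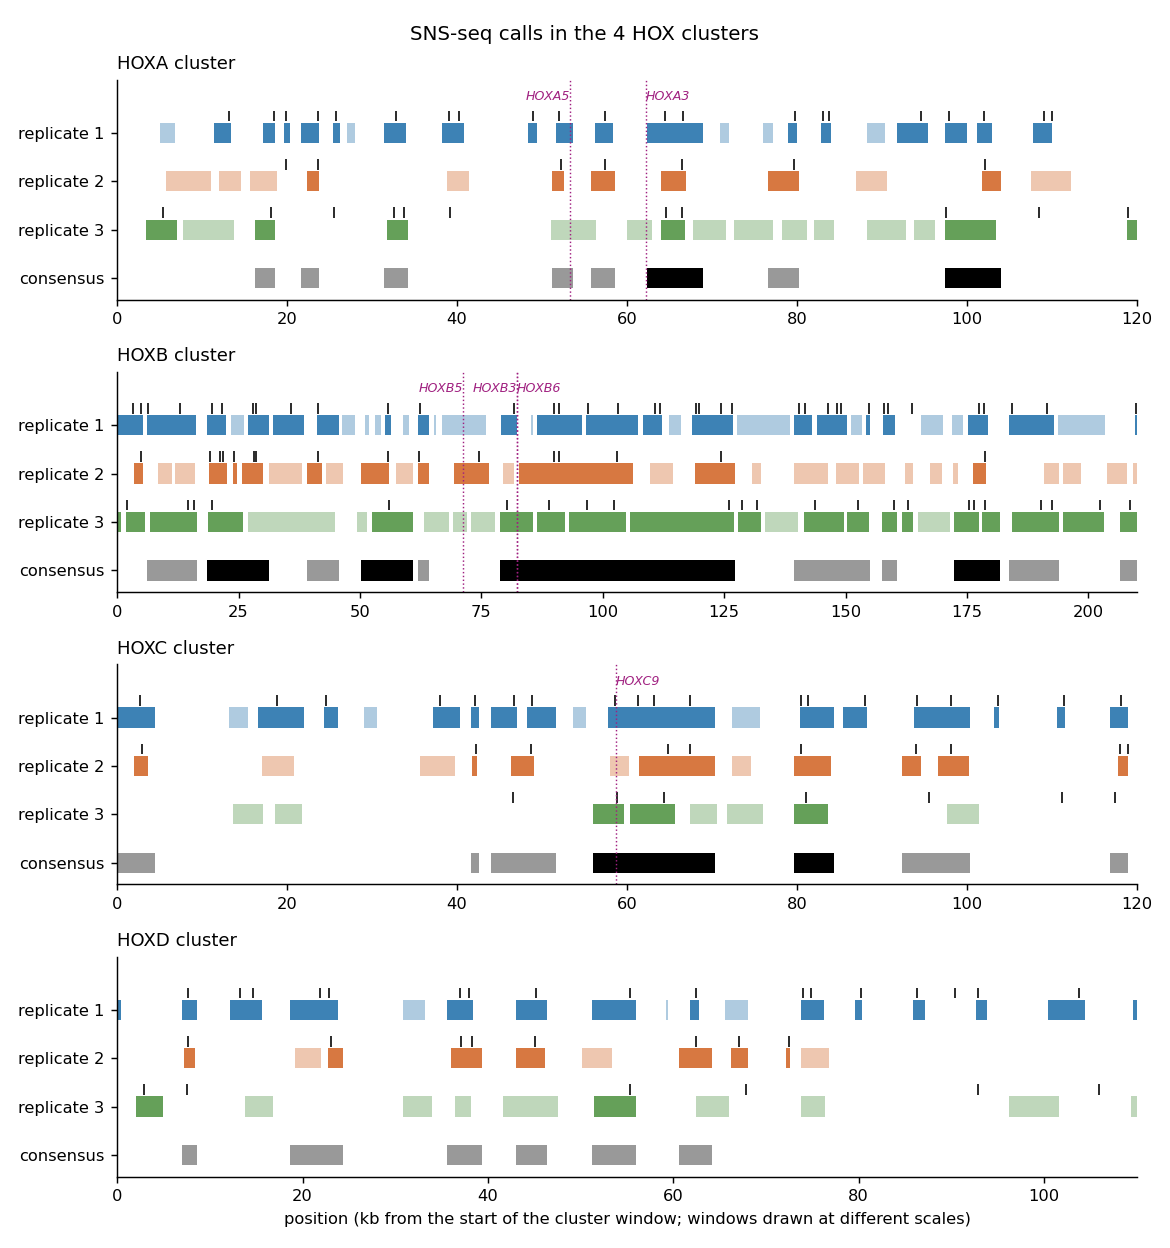
EPIC2 regions (bars, dark where they hold a summit of the same replicate and pale where they do not) and MACS2 summits (black ticks above the bars) in the 4 HOX clusters, by replicate, with consensus origins below (black in all 3 replicates, grey in 2), against the position in kb from the start of each window. Dotted lines mark the starts of the 6 HOX genes with an hg19 position, and HOXD has no black bar.

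Taken as 1 set, the 4 clusters were covered to 52.3%, 40.1% and 52.4%, their flanks to 22.1%, 12.4% and 28.4%, and chromosomes 1 to 22 and X to 8.99%, 4.66% and 11%. The difference from the flanks was 27.3 ± 3.13 percentage points (SD, n = 3), was positive in 3 of 3 replicates and was larger than the spread between replicates. Lengths were pooled, and HOXB made up 210000 of 560000 bases of the clusters but 1000000 of 4000000 bases of the flanks. The pooled difference therefore partly reflects the larger weight of the widely covered HOXB neighbourhood in the clusters. Pooled without HOXB, the difference was 23.7 points. Counting only regions that held a summit of their own replicate, the difference from the flanks was 15.4 points over the set, 14.7 in HOXA, 9.61 in HOXB, 9.21 in HOXC and 14.8 in HOXD. Against the right flank alone, HOXB differed by 10.7 points. With 3 replicates an exact two-sided sign-flip test cannot give a p below 0.25, and it gave 0.25 for the set, HOXA, HOXB and HOXD and 0.5 for HOXC, which became 0.469 and 0.682 after Benjamini-Hochberg adjustment over 15 tests. No difference in call density reported here could therefore pass the usual threshold, and sizes and directions per replicate carry the comparison.

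**Figure D2:**
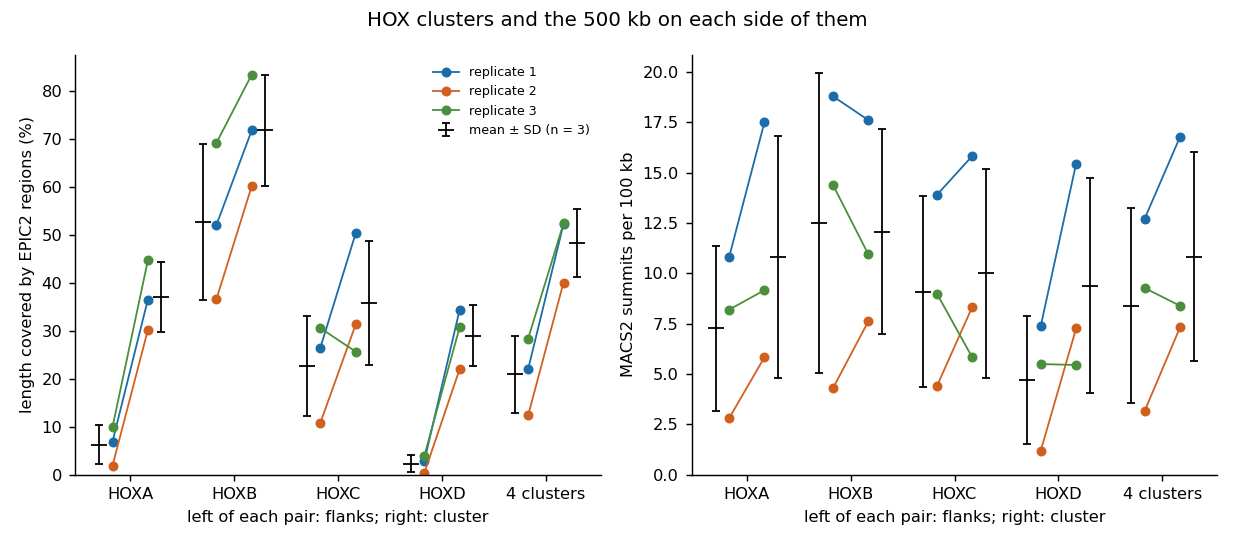
Percent of length covered by EPIC2 regions (left) and MACS2 summits per 100 kb (right) in the flanks (left point of each pair) and in the cluster (right point), with a line for each replicate and the mean ± SD (n = 3) in black. Covered length rose from flanks to cluster in all lines but HOXC replicate 3, while 4 of the 12 lines of summit density for the separate clusters fell.

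The clusters were also set beside the 20 steps of 50 kb in their own flanks. HOXA and HOXD were covered more than each of the 20 steps in every replicate. HOXB was covered more than 17, 19 and 18 of 20 steps in replicates 1, 2 and 3. HOXC lay above 19, 19 and 8 of 20 steps, the low rank again being that of replicate 3. The DNA next to the clusters differed in kind. The 50 kb before the HOXA window were covered to 17.6%, 0% and 27.6%, and the 50 kb after it to 27.6%, 4.4% and 20.4%, more than the median HOXA step of 4.4%, 0% and 7.8%, except before the window in replicate 2. Next to HOXC, cover was low, with 10.4%, 8.8% and 0% before the window and 6.4%, 0% and 5.2% after it. In replicate 3, HOXC was therefore above both its neighbours, although it lay below its flanks as a whole.

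**Figure D3:**
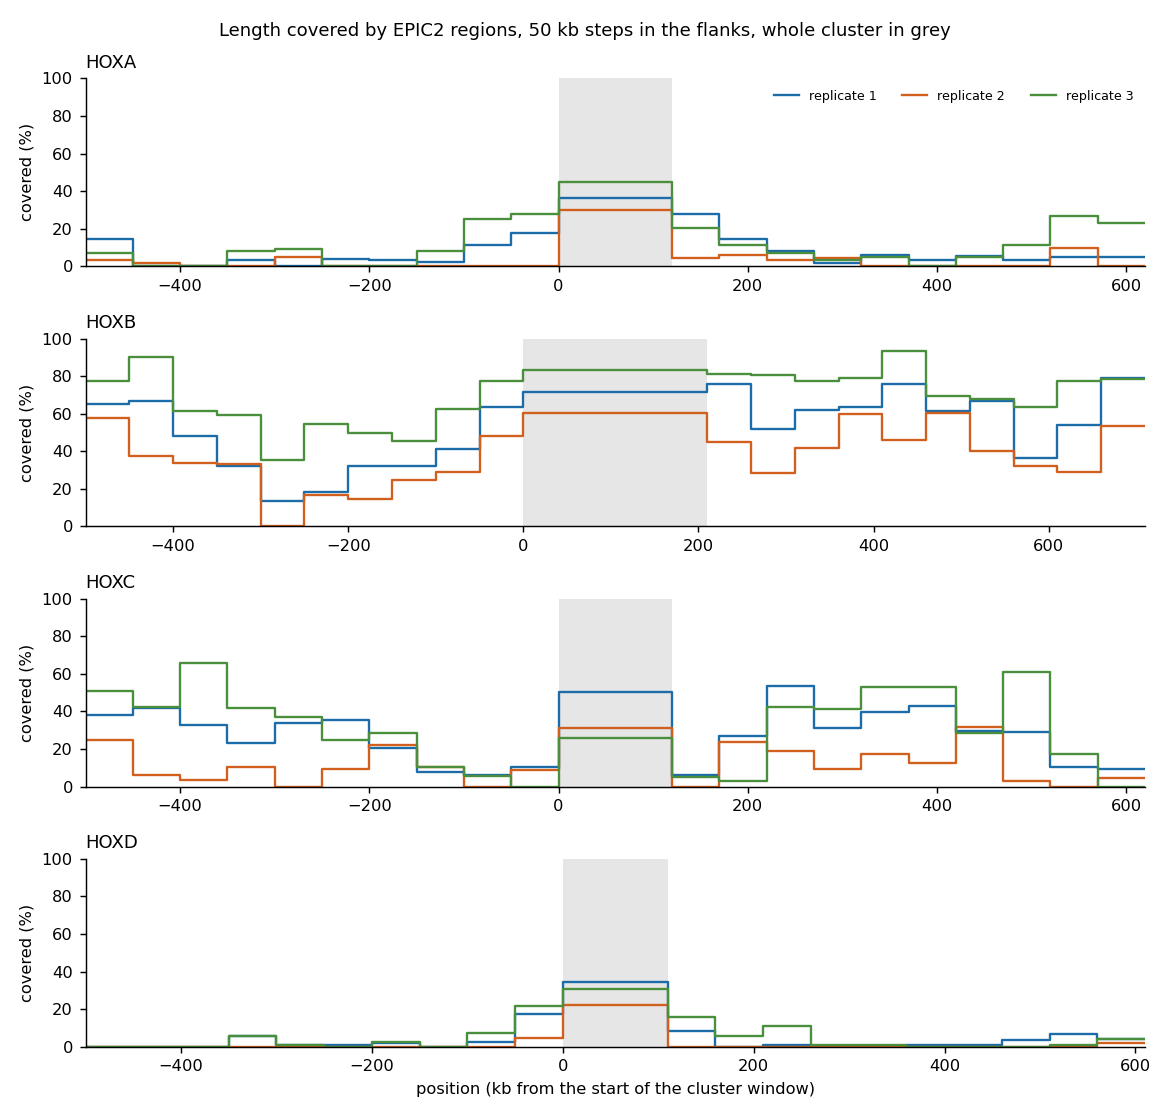
Percent of length covered by EPIC2 regions in 50 kb steps of the flanks and over each whole HOX cluster (grey band), by replicate, against the position in kb from the start of the window. HOXA and HOXD stand above all their steps in each replicate, HOXB lies in a widely covered neighbourhood, and HOXC is bordered by steps with little cover.

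Summit density gave a smaller and less uniform contrast than covered length. HOXA held 21, 7 and 11 summits in replicates 1, 2 and 3, which is 17.5, 5.83 and 9.17 per 100 kb against 10.8, 2.8 and 8.2 in its flanks. HOXA was the one cluster with more summits per length than its flanks in 3 of 3 replicates, with a log2 ratio of 0.64 ± 0.45 (SD, n = 3). The ratio was 0.40 with 250 kb flanks, 0.50 against the right flank only and 0.40 with equal numbers of summits per replicate, and under each of these it was no longer above 0 in all 3 replicates. HOXB held 37, 16 and 23 summits and exceeded its flanks in 1 of 3 replicates (log2 ratio 0.11 ± 0.64). HOXC held 19, 10 and 7 (0.16 ± 0.77, higher in 2 of 3). HOXD held 17, 8 and 6 (1.22 ± 1.31, higher in 2 of 3), and its mean fell to 0.53 without replicate 2, whose flanks held only 12 summits. Over the 4 clusters the log2 ratio was 0.49 ± 0.68, which is within the spread between replicates, 0.13 without replicate 2 and 0.18 with equal numbers of summits per replicate. HOXB weighed more in the clusters than in the flanks in this pooled ratio, which was 0.61 without HOXB. The exact sign-flip p was 0.25 for HOXA and between 0.5 and 1 for the others.

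Regions called by both callers, that is EPIC2 regions with at least 1 summit of their own replicate, are named common regions here. HOXA held 17, 6 and 6 common regions and its flanks, at over 8 times the length, 46, 5 and 24. HOXD held 12, 7 and 2, and its flanks 23, 1 and 12. Per length, HOXA and HOXD exceeded their flanks in 3 of 3 replicates, with log2 ratios of 2.00 ± 1.18 and 2.95 ± 2.76 (SD, n = 3). The HOXD value rests largely on replicate 2 and its 1 common region in the flanks, and was 1.42 without that replicate. The HOXA value was also highest in replicate 2, with 5 common regions in the flanks, and was 1.34 without it. HOXB held 19, 11 and 18 (log2 ratio 0.17 ± 0.67, higher in 1 of 3) and HOXC 14, 8 and 3 (0.14 ± 1.12, higher in 2 of 3). Over the 4 clusters the ratio was 0.91 ± 0.81, higher in 3 of 3 replicates, and 0.46 without replicate 2. This pooled ratio also gives HOXB more weight in the clusters than in the flanks, and was 1.20 without HOXB.

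In steps of 10 kb, common regions were spread through most of the clusters in replicate 1 and touched fewer steps in replicates 2 and 3. In replicate 1, 54 of the 56 steps in the clusters touched a common region, against 228 of 400 in the flanks and 30.7% of all steps on chromosomes 1 to 22 and X. In replicate 2 the counts were 34 of 56 and 70 of 400, with 9.82% of all steps. In replicate 3 they were 32 of 56 and 189 of 400, with 21.7% of all steps. The excess over the flanks was thus smallest in replicate 3. There HOXA had 7 of 12 steps (25 of 100 in its flanks), HOXB 19 of 21 (90 of 100), HOXC 4 of 12 (57 of 100) and HOXD 2 of 11 (17 of 100), so the HOXA share stood well above its flanks, those of HOXB and HOXD were about level and that of HOXC was below. A consensus origin, here a merged common region present in at least 2 replicates, was touched by 46 of 56 steps in the clusters (82.1%), 165 of 400 in the flanks (41.3%) and 18.3% of all steps. HOXB had one in 21 of 21 steps and its flanks in 90 of 100, so they were close. HOXA had one in 9 of 12 (11 of 100 in its flanks), HOXC in 9 of 12 (53 of 100) and HOXD in 7 of 11 (11 of 100). HOXB made up 21 of the 56 steps in the clusters and 100 of the 400 in the flanks. The pooled counts of steps therefore weigh HOXB more in the clusters than in the flanks.

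The clusters held 33 of 42072 consensus origins, with 12 in HOXB, 8 in HOXA, 7 in HOXC and 6 in HOXD. Per 100 kb these are 6.67 in HOXA, 5.71 in HOXB, 5.83 in HOXC and 5.45 in HOXD, a narrow range, whereas the flanks ranged from 0.7 at HOXD and 0.9 at HOXA to 4.9 at HOXC and 6.5 at HOXB. The genome value was 1.43 per 100 kb. These are counts of merged regions of unlike width, with a median of 2800 bases in HOXA, 9800 in HOXB, 5800 in HOXC and 3700 in HOXD. By covered length the clusters were not alike, with consensus origins over 24.5% of HOXA, 65.8% of HOXB, 35.3% of HOXC and 20.9% of HOXD. All 33 included a common region of replicate 1, 24 one of replicate 2 and 17 one of replicate 3. Replicates 1 and 2 alone made 16 of them, replicates 1 and 3 alone made 9, and replicates 2 and 3 alone made 0. HOXC and HOXD were mostly of the first kind (5 of 7 and 5 of 6), and 6 of 12 in HOXB were of the second. Replicate 1 also had the most EPIC2 regions and summits in the whole series. This make-up was not computed for the flanks or the genome, so it cannot be called a trait of the clusters. Origins in all 3 replicates numbered 8, with 4 in HOXB, 2 in HOXA, 2 in HOXC and 0 in HOXD. They made up 24.2% of the consensus origins in the clusters, against 23.8% in the flanks and 19.1% on chromosomes 1 to 22 and X. The share was 25% in HOXA, 33.3% in HOXB and 28.6% in HOXC, against 0%, 33.8% and 18.4% in their flanks. It was 0% in both HOXD and its flanks.

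In HOXA, genes run from HOXA2 at the low coordinate to HOXA13 at the high one, all on the minus strand. One origin shared by all replicates, chr7:27192401-27199000 (hg19), was 6600 bases wide and lay beyond the HOXA5 start on the side of HOXA6 to HOXA13. Its top summits scored 19.5, 6.76 and 5.69 in replicates 1, 2 and 3, on the −log10 q scale. It held the HOXA summits that lay within 250 bases of a summit in each other replicate, at 27196561, 27196438 and 27196483 in that order. The other, chr7:27227401-27234000, also 6600 bases wide, had top summits of 8.15, 6.10 and 2.79 and lay nearer the HOXA13 end. The last 10 kb of the window were covered to 0%, 22% and 12%, so cover was low there.

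HOXB, from HOXB1 to HOXB13, carried the widest origin of the 4 clusters, chr17:46678801-46727200 (hg19), which spanned 48400 bases and had common regions of all 3 replicates. It was merged from 7, 4 and 4 EPIC2 regions of replicates 1, 2 and 3, the widest of them 10600, 23400 and 21400 bases, so no replicate called it as 1 region. It took in the start of HOXB6 and extended on the side of HOXB7, HOXB8 and HOXB9. It also took in the start that the gene table gives for HOXB3, a hindbrain gene, but that start belongs to a span of 56043 bases and lies beyond the HOXB5 start, although HOXB3 comes before HOXB4 and HOXB5 in gene order. The origin held 11, 4 and 5 summits, with top scores of 23.1, 36.3 and 4.47. The highest EPIC2 score inside it stood at percentiles 99.92, 99.97 and 99.54 of all regions of the 3 replicates in turn. A 10 kb step inside it, from 90 to 100 kb of the window, was covered to 92%, 100% and 92%, the highest mean of all steps in the 4 clusters. The other HOXB origins in all replicates were chr17:46618601-46631200 (top summits 40.8, 7.91 and 2.12), chr17:46650201-46661000 (28.7, 10.3 and 2.55) and chr17:46772401-46781800 (3.10, 3.04 and 6.94). The last of these lies toward HOXB13, a gene of prostate and distal gut, and its top summit ranked highest in replicate 3, at percentile 86.1, whereas those of the others ranked highest in replicate 1 or 2. Among the HOXB summits shared within 250 bases, the one at 46655861 in replicate 1, with a score of 28.7, had the highest score.

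In HOXC, genes run from HOXC13 at the low coordinate to HOXC4 at the high one. The widest origin, chr12:54386001-54400400 (hg19), spanned 14400 bases, was found in all 3 replicates and took in the start of HOXC9, a gene of trunk identity in motor neurons. Its top summits scored 9.48, 7.12 and 3.41. The 10 kb from 60 to 70 kb of the window, inside it, were covered to 100%, 88% and 78%, the highest mean in HOXC. The other shared origin, chr12:54409601-54414400, had top summits of 7.95, 5.88 and 1.80 and lay on the side of HOXC8 to HOXC4. No HOXC summit lay within 250 bases of a summit in both other replicates. In replicate 3, a stretch of 34200 bases from 21.8 to 56 kb had no EPIC2 region, while replicates 1 and 2 had calls in it.

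HOXD, from HOXD13 at the low coordinate to HOXD1 at the high one, had no origin in all 3 replicates and no member with an hg19 position here. Its widest origin, chr2:176968601-176974400 (hg19), was 5800 bases wide and was made by replicates 1 and 2, with top summits of 3.41 and 3.98. The shared HOXD summits stood at 176957637, 176957674 and 176957539 in replicates 1, 2 and 3, with scores of 25.4, 3.75 and 3.03, and in replicate 3 this summit lay in no EPIC2 region. A further origin was picked after its values were seen. At chr2:176985601-176989400 the top summits scored 64.6 in replicate 1 and 84.3 in replicate 2, the highest summit scores of the 4 clusters in both, and stood at percentiles 99.96 and 99.90 of all summits. Replicate 3 had no summit there and a region of EPIC2 score 39.5, at percentile 24.8. The 33200 bases from 76.8 to 110 kb, toward HOXD1, held no EPIC2 region in replicate 2, whereas replicates 1 and 3 had regions there.

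The strength of calls followed replicate as much as cluster. Scores are given as percentiles among all summits or regions of the same replicate, since the scale may differ between libraries. The median summit in HOXB stood at percentile 62.0, 84.7 and 51.1 in replicates 1, 2 and 3, and in the HOXB flanks at 61.8, 57.5 and 59.7. In HOXA it stood at 51.8, 48.3 and 53.5. In HOXC it stood at 58.3, 76.5 and 5.05, and in HOXD at 65.5, 66.6 and 25.4, so replicate 3 was low in both of these. In the flanks of HOXC and HOXD, replicate 3 stood at 60.9 and 58.7. EPIC2 regions also ranked low in replicate 3 in HOXC (median percentiles 76.8, 76.1 and 31.7) and HOXD (76.5, 57.6 and 33.0). In HOXB their medians of 91.1, 76.7 and 91.3 put the replicates in another order than the summits did. Regions of the HOXB flanks had medians of 75.4, 57.5 and 83.5. In HOXB, 17 of 33 regions of replicate 1, 9 of 28 of replicate 2 and 13 of 25 of replicate 3 were in the top 10% of their replicate. These are 51.5%, 32.1% and 52%, and the HOXB flanks had 32.3%, 15.7% and 36.8%, so many high scores lay around the cluster too. In HOXA a place in the top 10% held for 1 of 22, 0 of 12 and 0 of 15. In the HOXA flanks it held for 1 of 49, 0 of 8 and 0 of 33. The median EPIC2 percentiles were 55.8, 50.1 and 62.0 in HOXA and 31.8, 44.0 and 37.4 in its flanks. HOXA was therefore densely called with regions of middling score, whose medians ranked above those of its flanks in each replicate.

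**Figure D4:**
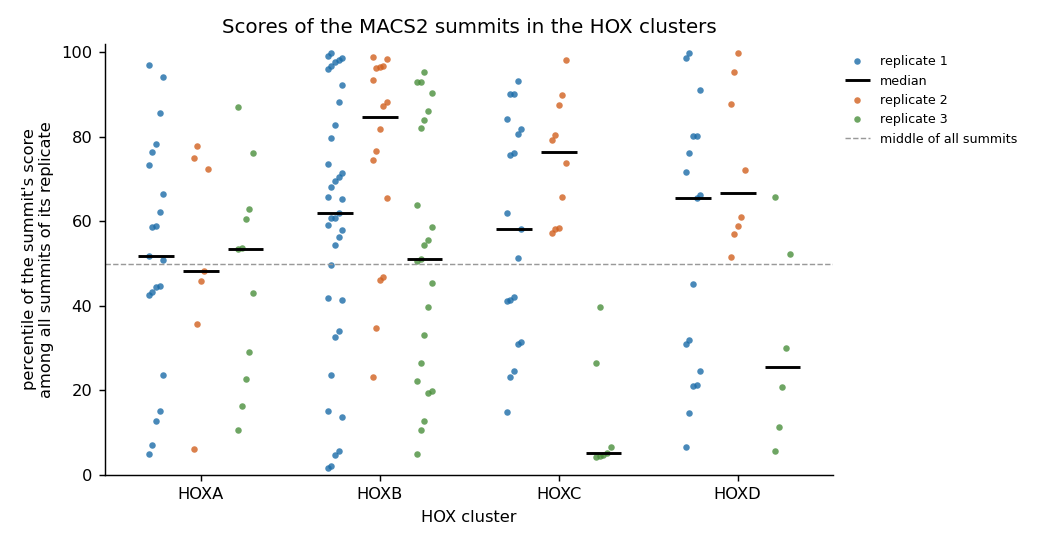
Percentile of each MACS2 summit's score among all summits of its replicate, for the summits in each HOX cluster, with the median as a black bar and the middle of all summits as a dashed line. In replicate 3 the 7 HOXC summits lie low, with a median of 5.05, while the other replicates' medians in HOXC lie above 50.

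Replicates shared summits in the clusters unevenly. Of the 94 summits of replicate 1, 34.0% had a summit of replicate 2 within 250 bases, against 14.7% in the flanks and 14.6% on chromosomes 1 to 22 and X. Of the 41 summits of replicate 2, 78.0% had one of replicate 1, against 59.1% and 50.6%. Of replicate 1 summits, 13.8% had one of replicate 3 (24.2% in the flanks, 19.4% on chromosomes 1 to 22 and X). Of replicate 2 summits, 7.32% did (14.96% and 15.1%). Of the 47 replicate 3 summits, 27.7% had one of replicate 1 (33.2% in the flanks, 26.1% on chromosomes 1 to 22 and X) and 6.38%, or 3 summits, one of replicate 2 (5.12% and 5.87%). A summit lay in an EPIC2 region of its own replicate in 97.9%, 97.6% and 76.6% of cases in the clusters. In the flanks, which EPIC2 regions cover less, the shares were 71.7%, 54.3% and 65.5%. By cluster, replicate 3 had 72.7% in HOXA, 100% in HOXB, 42.9% in HOXC and 33.3% in HOXD. Their flanks had 31.7%, 95.1%, 72.2% and 27.3% in replicate 3, so HOXC lay below its flanks there. These shares are descriptions with no test, and the lists differ in length.

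The order of the clusters by covered length was HOXB, HOXC, HOXA, HOXD in replicates 1 and 2, and HOXB, HOXA, HOXD, HOXC in replicate 3. HOXB did not overlap any other cluster in its range over replicates. HOXA, HOXC and HOXD overlapped each other, although HOXA exceeded HOXD in 3 of 3 replicates. By summit density all ranges overlapped, and HOXC came first in replicate 2 where HOXB did in replicates 1 and 3.

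An hg19 start was at hand for 6 of the 38 members, so calls at the other 32 starts were not analysed here. The HOXC9 start lay in an EPIC2 region in all 3 replicates, and in replicates 1 and 3 the nearest summit was 144 bases upstream and 136 bases downstream of it. In replicate 2 it lay in no common region and the nearest summit was 6171 bases downstream. The HOXB5 start, of a gene active in gut nerve precursors, also lay in an EPIC2 region in all 3 replicates, but in a common region only in replicate 2 and in no consensus origin. HOXB3 and HOXB6, whose starts in the table lie under 0.1 kb apart and so are 1 site with the same calls, lay in a common region in replicates 1 and 3, and in replicate 2 the nearest EPIC2 region was 474 and 447 bases away. The HOXA5 start, of a gene of lung development, lay in a common region in replicate 1, in an EPIC2 region with no summit in replicate 3, and 700 bases from a region in replicate 2. The HOXA3 start in the table, which is that of its longest annotated span and lies 38.7 kb before the RefSeq start, was in a region in replicate 3 only, 201 bases from one in replicate 1 and 1801 in replicate 2. In all, 5, 2 and 6 of the 6 starts lay in an EPIC2 region, 4, 1 and 3 in a common region, and 4 in a consensus origin (HOXA5, HOXB3, HOXB6 and HOXC9), with HOXB3 and HOXB6 counted separately. Consensus origins covered 24.5% of the HOXA window, 65.8% of HOXB and 35.3% of HOXC, and 7.71% of chromosomes 1 to 22 and X, and the share over all gene starts was not computed. No start lay in a common region of all 3 replicates. Along the 4 shorter genes, EPIC2 regions covered 100%, 71.1% and 78.5% of HOXB5, 100%, 85.8% and 72.5% of HOXC9, 67.5%, 63.7% and 89.2% of HOXB6 and 64.6%, 53.2% and 87.5% of HOXA5. These values stand against the cover of the whole HOXB, HOXC and HOXA windows given above, and whether gene starts are favoured within the clusters was not tested.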

How the data were processed

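Per the labels and the study's methods, the authors aligned SNS-seq reads of 3 untreated HCT116 replicates to hg19 with Bowtie2 2.3.4.2, removed duplicates with Picard 2.18.17 and called each replicate separately with MACS2 2.1.0.20151222 and EPIC2. The sources used here name no control library. Each deposited EPIC2 region has 1 score, of a kind that these sources do not state. The deposited MACS2 summits carry a score read as −log10 of the q-value. Scores were used to rank calls within a replicate or to filter summits.

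Covered length, summits and common regions were counted in each window and its flanks, and consensus origins were merged over replicates at an overlap of at least 1 base. Regions were counted by their midpoint. Differences were tested by an exact two-sided sign-flip permutation test over replicates. A gene table in the study's supplement gave hg19 starts of 6 members, and RefSeq tables of another build gave gene order and promoters. The text names each placed member, origins in all 3 replicates, the widest origin of each cluster and the best shared summit. The windows, members, tests and alternatives were chosen with earlier results of these data known, and pooling without HOXB was added after seeing the data. The functions were tested on simulated regions. Python 3.11.15, numpy 2.4.6 and scipy 1.17.1 were used.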

Additional observations from a re-analysis of the deposited data

How the results depend on the processing

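The difference in EPIC2 cover, as a mean over replicates, stayed above 0 under all 48 alternatives tried, many of which share data. For the set it ranged from 15.4 points with common regions only to 29.9 against the left flank only, with 23.7 for the set pooled without HOXB. The mean does not show single replicates, and HOXC replicate 3 stood at -4.91 points in the main setting. HOXC ranged from 7.8 without replicate 1 to 22.2 without replicate 3. For summit density, the HOXB log2 ratio of 0.11 turned to -0.017 against the right flank only and -0.15 with equal numbers of summits per replicate, and ranged from -0.24 without replicate 2 to 0.37 when another replicate was left out. The HOXC ratio of 0.16 turned to -0.34 with summit scores of at least 2, and ranged from -0.22 without replicate 2 to 0.55. For common regions, the HOXB ratio ranged from -0.20 without replicate 2 to 0.45, and the HOXC ratio turned to -0.35 with summit scores of at least 2 and ranged from -0.35 without replicate 2 to 0.75. The cause was not tested.

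Consensus origins depended on how they were made. The number in the clusters was 33 in the main setting and 8 where all 3 replicates were required, and ranged from 9 without replicate 1 to 27 without replicate 3. Against the flanks, consensus cover of the set was higher by 19.6 points, and by 12.7 with all 3 replicates required. The excess was 1.79 points with summits widened by 250 bases in place of regions, and 9.74 to 19.3 when a replicate was left out. Here too HOXB weighed more in the clusters than in the flanks. The excess was 15.8 points with only the first 110 kb of HOXB and 17.9 without HOXB. For HOXA the difference of 21.9 points became 11 with all 3 replicates, 3.67 with widened summits and 8 to 16.6 when a replicate was left out. For HOXB the 5.51 points became -1.91 against 1 Mb flanks, 17.8 and -6.83 against the left and the right flank only, -1.29 with widened summits, 17.01 with reciprocal overlap and 1.37 to 17.5 when a replicate was left out. For HOXC the 12.4 points became 3.39 with widened summits and ranged from -0.96 without replicate 2 to 24.9 without replicate 3. For HOXD the 18.7 points became 0 with all 3 replicates, 2.183 with widened summits and 0 to 16.4 when a replicate was left out. In 5 kb steps, 62.5% of cluster steps and 45.8% of those in HOXA held a consensus origin, against 34.1% and 7.5% of their flanks and 13.6% of all steps. Within 1000 bases, 27.7% of replicate 1 summits had one of replicate 3 (39.7% in the flanks, 32.4% on chromosomes 1 to 22 and X). The share for replicate 2 summits was 24.4% (33.9% and 26.05%). For replicate 3 summits, 55.3% had one of replicate 1 (51.5% in the flanks, 41.9% on chromosomes 1 to 22 and X) and 21.3% one of replicate 2 (11.6% and 10.2%). Within the same distance 5 of 6 gene starts had an EPIC2 region in all replicates, against 2 at the start itself. HOXB3 and HOXB6 are counted separately here, although their starts are 1 site. The same share over other positions of the windows or over all gene starts was not computed, so the count shows no preference for gene starts.

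In 3 cases a ratio could not be computed, because a replicate had no call in the cluster or the flanks, which were HOXC with equal numbers of summits and HOXD common regions with 250 kb flanks or the left flank only. Depth limits cannot be given without read numbers.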
